A study of Homo sapiens with 6 samples.

Results

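The MEIS, PBX and PKNOX genes encode homeodomain proteins of the TALE class, named after a 3-amino-acid loop extension in the DNA-binding homeodomain. The 8 genes described here are MEIS1, MEIS2, MEIS3, PBX2, PBX3, PBX4, PKNOX1 and PKNOX2. They were chosen by name, from the 78932 gene identifiers in each file, and all 8 had a row. Of the 8, 5 had enough reads to be tested among 17677 tested genes.

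PBX proteins bind DNA together with HOX proteins and also pair with MEIS or PKNOX proteins through a domain outside the homeodomain. Pairing with MEIS or PKNOX retains PBX in the nucleus. MEIS1 is best known in leukemia as the partner of HOXA9 and as a target of KMT2A fusion proteins and menin, and PKNOX1 takes part in thymocyte development.

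RNA was sequenced from Karpas-45, a cultured line founded from human T-cell acute lymphoblastic leukemia that carries a KMT2A-FOXO4 fusion; the labels describe its cells as leukemic blasts. In 1 group the cells carried a scramble control hairpin, and in the other the hairpin named shMEF2CKD2, which targets the transcription factor gene MEF2C of the MADS-box family. The hairpin vector was lentiviral and linked to GFP, and GFP-positive cells were sorted 120 hours after transduction. The labels list the genotypes as WT and MEF2C KD and both groups as untreated. Each group held 3 libraries called technical replicates, from 1 line and 1 MEF2C hairpin, so the spread behind each p-value may be technical only, and effects of this hairpin and of MEF2C cannot be told apart.

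Reads assigned to genes ran from 45560303 to 97077335 per library. Scramble replicates 1 to 3 held 2, 1 and 0 reads of MEF2C, and hairpin replicates 1 to 3 held 2, 0 and 0. Every library lay under the floor of 3 reads, so the targeted gene cannot check the labels and no fold change is given for it. All 10 T-lineage markers examined were tested, with summed levels of 3159 to 3263 CPM (read counts scaled to a common library size, with TMM factors) in scramble and 3333 to 3441 CPM in hairpin libraries. Of these 10 markers 7 were higher and 0 lower in the hairpin libraries (edgeR quasi-likelihood test, adjusted p under 0.05), beside 13.5% of all tested genes called higher and 15.3% lower. Summed levels in scramble and hairpin libraries were 2.17 to 2.87 and 3.04 to 3.30 CPM for 5 B-lineage markers, with EBF1 at 0 reads. They were 1.48 to 1.91 and 1.45 to 2.25 CPM for 6 myeloid markers, 0.817 to 6.19 and 1.33 to 2.16 CPM for 6 erythroid and megakaryocyte markers with PF4 at 0 reads (at most 1.12 CPM in scramble libraries without replicate 1, where HBB alone measured 5.63 CPM), and 0.914 to 1.03 and 1.36 to 1.83 CPM for 6 embryonic kidney markers with EPCAM and LHX1 at 0 reads. Of the embryonic kidney markers 2 were tested, of which 1 was higher and 0 lower in hairpin libraries. The higher marker, named after its values were seen, was GPC3, with means of 0.341 CPM in scramble and 0.660 CPM in hairpin libraries (edgeR adjusted p = 0.0351). The part of these marker levels in the results below was not tested.

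The coding sequence around the shared loop shows how close the members are to one another, which bears on how far reads can be told apart between them. The stretches below give, 5′ to 3′, 30 coding bases from GENCODE 29 transcripts (GRCh38), with capitals on the 3 codons for the proline-tyrosine-proline residues that TALE homeodomains share in this loop.
MEIS1: ctaacacacCCTTACCCTtctgaagaacag
MEIS2: ctcacacatCCGTACCCTtccgaagagcag
MEIS3: ctctcgcacCCGTACCCCtcggaggagcag
PKNOX1: atcgggcatCCCTACCCAacagaggatgag
PKNOX2: ctcatgcacCCCTACCCCacggaggatgag
PBX2: ctgagtaacCCATATCCTagtgaggaggcc
PBX3: ctcagcaacCCCTACCCCagtgaagaagcc
PBX4: ctgaacaacCCTTACCCCagcgaagaagcc
Over the 189 coding bases of the 63-codon homeodomain, pairs within a name group shared more bases than pairs across groups. In it, MEIS1 shared 83.6% of bases with MEIS2, 64.6% with PKNOX1 and 49.7% with PBX2. PBX2 and PBX3 shared 79.9% of these bases, as did PBX3 and PBX4, and PKNOX1 and PKNOX2 shared 78.3%. The closest pair across groups was MEIS3 and PKNOX2 at 73.5%, against 77.2% for MEIS2 and MEIS3. Over the printed 30 bases alone the groups were not separate: MEIS3 and PKNOX2 shared 24, as did PKNOX1 and PKNOX2. The printed bases run over an exon junction in the MEIS and PKNOX genes and lie within 1 exon in the 3 PBX genes, where they occupy chr6:32187689-32187718 (PBX2, minus strand), chr9:125935536-125935565 (PBX3, plus strand) and chr19:19569491-19569520 (PBX4, minus strand).

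Over stretches of 50 bases most of this resemblance disappeared, although the sources used here do not give the read length. No 50-base stretch of the annotated MEIS1, PBX3 or PBX4 transcripts occurred, in the same orientation, in the transcripts of another gene. Reverse complements were not compared, and exons of other genes on either strand cover 4.19% of the exonic bases of MEIS1. The share was 1.11% for PKNOX1 and 26.2% for PBX2. The PBX2 stretches are shared with the processed pseudogene PBX2P1 on chromosome 3 and with a noncoding gene annotated over the 3′ end of PBX2 on the same strand. That gene (ENSG00000273333) received 0 reads in all 6 libraries, and PBX2P1 received 0 to 15 reads per library. The level of PBX2 is therefore less certain than those of the other members, since the files count reads that align to more than 1 place, or fall in more than 1 gene, apart from the gene counts.

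Of the 8 genes, 5 were expressed and 3 were at or near 0 reads. PKNOX1, PBX2, PBX3 and MEIS1 stood within a narrow range of per-length levels, and PBX4 was lower. On the RPKM scale (CPM per kilobase of the union of a gene's exons), the scramble means were 16.5 ± 0.607 for PKNOX1, 12.4 ± 0.631 for PBX2, 12.4 ± 0.256 for PBX3, 11.8 ± 0.163 for MEIS1 and 3.05 ± 0.200 for PBX4 (SD, n = 3 each). In the hairpin libraries they were 15.4 ± 0.518, 13.8 ± 0.622, 12.1 ± 0.179, 10.7 ± 0.263 and 2.97 ± 0.0995 RPKM (SD, n = 3 each). The ranges of PBX2 and PBX3 overlapped in the scramble libraries, and no other neighbours in this order overlapped in either group. The order rests on the length used. With the longest transcript of each gene in place of the union of exons, MEIS1 came first at 25.3 RPKM in scramble libraries, followed by PKNOX1 at 24.3, PBX3 at 19.4, PBX2 at 16.8 and PBX4 at 4.52.

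MEIS2 received 1 read in all 6 libraries together, PKNOX2 received 1 and MEIS3 received 0. Against 376323864 gene reads in all, a floor of 3 reads corresponds to 0.00797 CPM, so the 3 genes were not detectable in these counts. MEIS1 was thus the only MEIS gene, and PKNOX1 the only PKNOX gene, with a detectable level in them. Floors cover counting error only. Without a stated annotation release and strand setting, counts near 0 do not show that these genes had no transcripts.

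**Figure D1:**
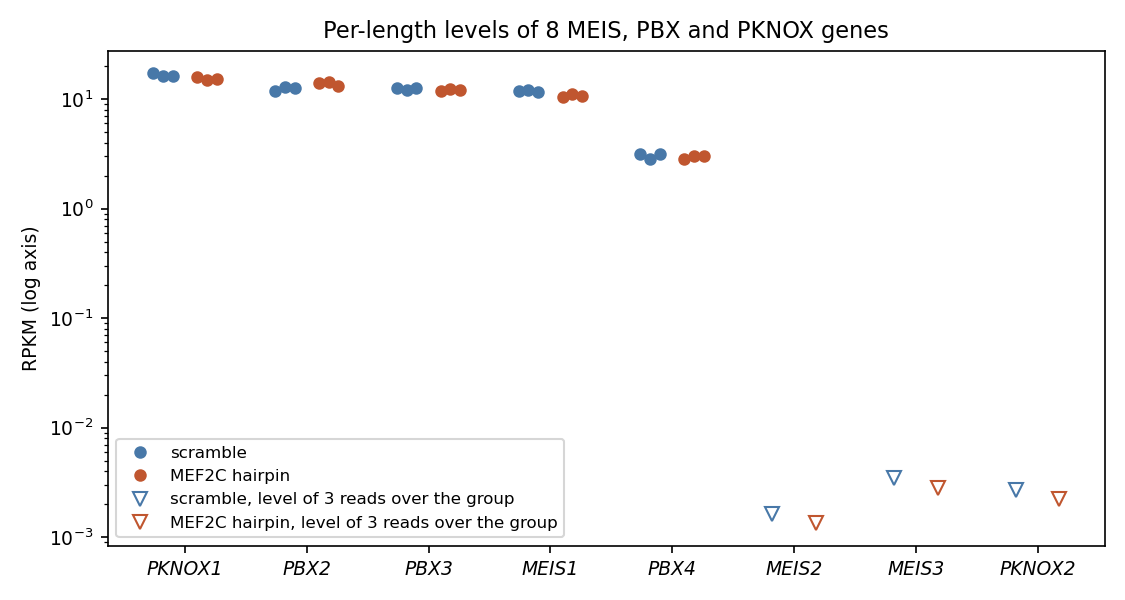
Level of each of the 8 genes in RPKM on a log axis, 1 point per library, with scramble in blue and MEF2C hairpin in orange; open triangles mark the level that 3 reads over the group would give for a gene with fewer reads. PKNOX1, PBX2, PBX3 and MEIS1 lie between 10.5 and 17.2 RPKM, PBX4 near 3 RPKM, and MEIS2, MEIS3 and PKNOX2 are not detectable.

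In the comparison of MEF2C hairpin with scramble libraries, MEIS1 and PKNOX1 were lower and PBX2 was higher, each by a small amount, while PBX3 and PBX4 did not pass the test. Of the 5 tested members, 2 passed as lower and 1 as higher, beside 28.8% of all tested genes called in either direction, 15.3% lower and 13.5% higher. The median log2 fold change was -0.04 over the 5 members and 0.00 over all tested genes.

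MEIS1 (ENSG00000143995, plus strand of chromosome 2 from 66433452 to 66573869) measured 129.0, 130.9 and 127.4 CPM in replicates 1 to 3 of the scramble group. In hairpin replicates 1 to 3 it measured 114.6, 120.2 and 116.5 CPM. All 3 hairpin libraries lay below all 3 scramble libraries, which was so, in either direction, for 39.9% of tested genes. MEIS1 fell by 9.15%, a log2 fold change of -0.14 (SE 0.0264, 95% interval -0.19 to -0.08, edgeR adjusted p = 7.68e-05). The call held in all 15 alternative analyses run.

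PKNOX1, also known as PREP1, was the other gene of the MEIS and PKNOX groups with a detectable level (ENSG00000160199, plus strand of chromosome 21 from 42974510 to 43033931). Its CPM was 131.0, 123.7 and 122.4 in scramble and 121.9, 114.1 and 116.7 in hairpin replicates 1 to 3. The groups did not overlap, but the lowest scramble library and the highest hairpin library were close. The log2 fold change was -0.10 (SE 0.0289, 95% interval -0.16 to -0.04, edgeR adjusted p = 0.00794). Its call rested on single libraries: the adjusted p was 0.105 without scramble replicate 1 and 0.0967 without MEF2C hairpin replicate 2, with log2 fold changes of -0.07 and -0.08.

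Both MEIS1 and PKNOX1 belong to the 2547 tested genes with a mean of at least 100 CPM, of which 57.4% were called, 44.9% lower and 12.6% higher. The median log2 fold change in this class was -0.05. In it, 18.9% of genes had a log2 fold change below that of MEIS1 and 31.4% below that of PKNOX1. The falls of MEIS1 and PKNOX1 were thus of a size and direction that many genes of their level showed.

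PBX2, whose gene lies in the major histocompatibility complex (ENSG00000204304, minus strand of chromosome 6 from 32184741 to 32190186), went the other way. It measured 50.9, 56.1 and 55.0 CPM in scramble and 60.9, 62.2 and 57.0 CPM in hairpin replicates 1 to 3. The highest scramble library was just under the lowest hairpin library. PBX2 was 11.6% higher in the hairpin libraries, a log2 fold change of 0.16 (SE 0.0393, 95% interval 0.08 to 0.24, edgeR adjusted p = 0.00176). Among the 5067 tested genes of 20 to 100 CPM, 40.4% were called, 17.0% higher and 23.5% lower, and 9.30% had a log2 fold change above that of PBX2. Reads that aligned to more than 1 place took 3.67 to 6.86% of all reads in scramble libraries and 3.82, 3.56 and 16.1% in hairpin replicates 1 to 3. Without MEF2C hairpin replicate 3, the log2 fold change of PBX2 was 0.19 (edgeR adjusted p = 0.000602). It was 0.12 without scramble replicate 1 (edgeR adjusted p = 0.03) and 0.13 without MEF2C hairpin replicate 2 (edgeR adjusted p = 0.0368). The part of reads aligned to more than 1 place in the change of PBX2 was not tested.

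PBX3, which is often co-expressed with HOXA9 and MEIS1 in acute leukemia (ENSG00000167081, plus strand of chromosome 9 from 125747345 to 125967377), differed by less than could be detected. It measured 56.7, 54.8 and 57.0 CPM in scramble and 54.1, 55.6 and 54.4 CPM in hairpin replicates 1 to 3, and the groups overlapped. Its log2 fold change was -0.04 (95% interval -0.11 to 0.03, edgeR adjusted p = 0.473). PBX4 (ENSG00000105717, minus strand of chromosome 19 from 19561707 to 19618916) measured 7.20 to 8.11 CPM in scramble and 7.29 to 7.78 CPM in hairpin libraries. With a log2 fold change of -0.04 and an interval of -0.22 to 0.14 (edgeR adjusted p = 0.787), its lower level left a wider range of possible differences than for PBX3.

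**Figure D2:**
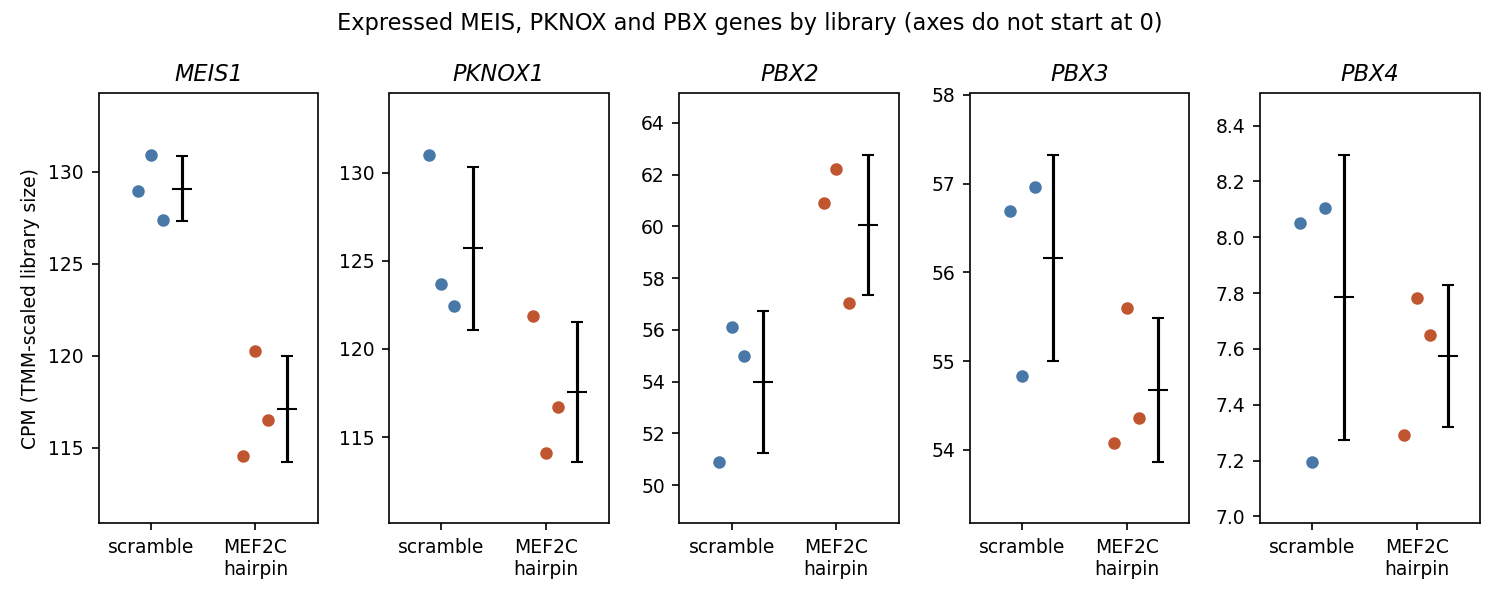
CPM of the 5 expressed genes in each library, with 1 point per library and the mean ± SD of each group of 3 in black; the axes do not start at 0. The groups do not overlap for MEIS1 and PKNOX1, which were lower with the MEF2C hairpin, and PBX2, which was higher, and they overlap for PBX3 and PBX4.

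As a description of the balance between these genes, the per-length levels were set against one another within each library. The ratio of MEIS1 to PBX2 in RPKM was 1.01, 0.927 and 0.920 in replicates 1 to 3 of the scramble group. It was 0.747, 0.768 and 0.812 in hairpin replicates 1 to 3, all below the scramble values. Since neither MEIS1 nor PBX2 overlapped between the groups, and they differed in opposite directions, this separation follows from the levels already given. The ratio of MEIS1 to PBX3 was 0.926 to 0.989 in scramble and 0.878 to 0.896 in hairpin libraries. Summed over PBX2, PBX3 and PBX4, the level was 27.4 to 28.4 RPKM in scramble and 28.1 to 29.7 RPKM in hairpin libraries, which overlapped. These sums hold only the PBX genes described here, and the absolute ratios change with the gene length used.

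**Figure D3:**
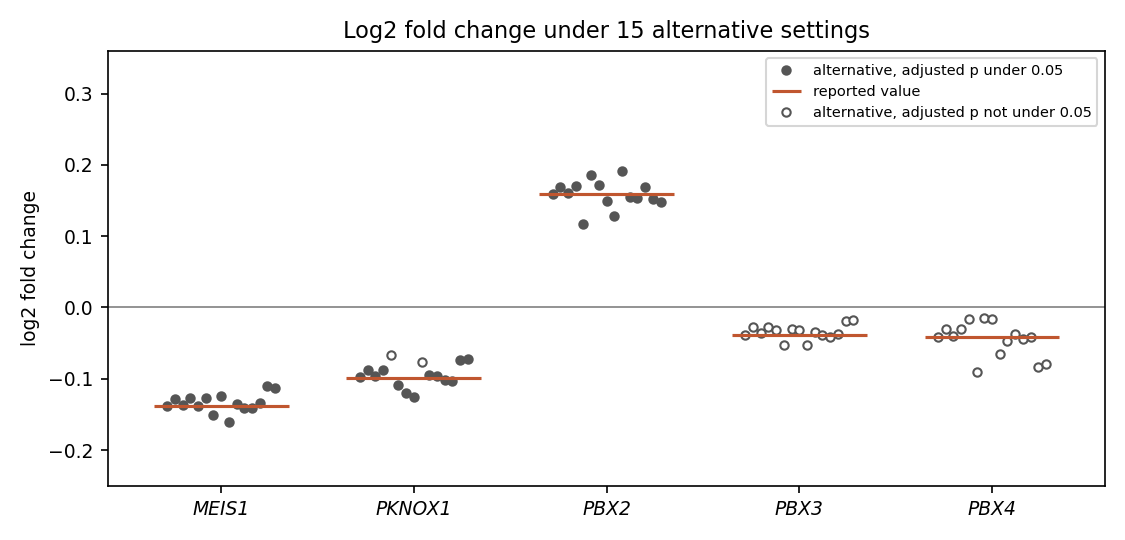
Log2 fold change (MEF2C hairpin over scramble) of the 5 expressed genes as reported (line) and under 15 alternative settings (points, filled where the adjusted p was under 0.05). MEIS1 and PBX2 stay past the threshold in all 15, PKNOX1 in 13, and PBX3 and PBX4 in 0.

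The hairpin target was set against the members' transcripts, because short matches to a hairpin's antisense strand can occur in other 3′ UTRs. The target and the match are printed 5′ to 3′ from GENCODE 29, with capitals on the 7 bases that lie opposite bases 2 to 8 of the antisense strand.
MEF2C target: cccaatgaatttaGGAATGAa
PKNOX1 3′ UTR: tagattgtgaGGAATGAcacaccactc
MEF2C was the only gene whose annotated transcripts held the full 21 bases, at chr5:88731793-88731813 on the minus strand. Among the 8 members, GGAATGA was found in the 3′ UTR of PKNOX1 only, once in 3484 bases, with the printed stretch at chr21:43030345-43030371 on the plus strand. For each gene only the transcript with the longest coding sequence was searched, so other transcripts may differ. The heptamer was present in the 3′ UTR of 10.3% of 11895 tested genes, 12.6% of those called lower and 9.41% of those called higher. It was absent from the 3′ UTR of the transcript used for MEIS1 (1803 bases). A match of these letters is a description, and its part in the change of PKNOX1 was not tested.

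Other TALE genes were examined as the wider class. Of 9, only TGIF2, IRX3 and IRX5 had enough reads to be tested. Of these 3, 2 were lower and 0 higher in the hairpin libraries, beside 15.3% of all tested genes called lower and 13.5% higher. All 3 had a mean of 20 to 100 CPM, the class in which 23.5% of genes were called lower and 17.0% higher. IRX3 and IRX5 are Iroquois homeobox genes that lie in 1 cluster on chromosome 16. IRX3 fell from a scramble mean of 27.4 ± 0.788 to a hairpin mean of 19.8 ± 1.03 CPM (SD over 3 libraries each), which is -0.47 on the log2 scale with SE 0.0532 (edgeR adjusted p = 4.95e-09). IRX5 was lower by a log2 value of -0.23 with SE 0.0445, at 39.6 ± 1.99 CPM in scramble and 33.8 ± 0.983 CPM in hairpin libraries (SD, n = 3 each, edgeR adjusted p = 0.000115). Both falls were larger than that of MEIS1, and both calls held in all 15 alternatives, although these differences between genes were not tested. TGIF2, a corepressor of SMAD signalling, had group means of 96.3 ± 2.04 and 99.2 ± 0.517 CPM (SD over 3 libraries each), with an edgeR adjusted p of 0.276, and its log2 fold change of 0.04 turned to -0.01 in the lowest of the alternatives. Its relative TGIF1, named after its values were seen, received 1 read in all 6 libraries.

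The HOX genes, whose proteins are the best known partners of PBX and MEIS, received almost no assigned reads here. Of 39 HOX genes and TLX1, TLX2 and TLX3, the 40 that were not tested had at most 7 reads in any library, and 26 had 0 reads in all 6. The 2 tested genes were HOXD12 and TLX2, named after their values were seen, at 0.224 and 1.37 CPM in scramble libraries. Of the 2, 0 were called by edgeR (adjusted p = 0.700 and 0.732). MEIS1, PBX2, PBX3 and PKNOX1 were thus expressed at 54.0 to 129.1 CPM (scramble means) in cells where HOXA9 was at 0 reads. Exons of other genes cover 27.0% of the exonic bases of HOXA9, and reads that fall in more than 1 gene are counted apart. Without a stated annotation release and strand setting, counts near 0 do not show that a HOX gene had no transcripts.

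Cofactors and regulators of these proteins were all expressed. The list held the CREB coactivators through which MEIS1 can activate transcription, GSK3 kinases, corepressors of PBX, and the ubiquitin ligase that takes MEIS2 as a substrate. Of 15 genes, 4 were higher and 1 lower, beside 13.5% of all tested genes called higher and 15.3% lower. Of the 15, 9 had a mean of at least 100 CPM and 6 one of 20 to 100 CPM, the classes in which 57.4% and 40.4% of genes were called, so the share of the list called was no larger than in those classes. By direction, 12.6% and 17.0% of genes in those classes were higher and 44.9% and 23.5% lower. The list thus held more higher than lower calls, where its classes held more lower ones. With GC content and length offsets 3 were higher and 4 lower. The number higher was 2 without scramble replicate 3 or either of MEF2C hairpin replicates 1 and 2. Their median log2 fold change was -0.02. CRTC2, a coactivator of CREB, measured 43.5 to 45.2 CPM in the 3 scramble libraries and rose to 46.0 to 51.5 CPM in the 3 hairpin libraries, which is 0.14 on the log2 scale with SE 0.0414 (edgeR adjusted p = 0.0088). The acetyltransferase CREBBP changed by 0.09 (edgeR adjusted p = 0.00596, and 0.104 without scramble replicate 3) and the cullin CUL4A by -0.09 (edgeR adjusted p = 0.00553). The other higher genes, named after their values were seen, were CRTC3 at 0.09 and the PBX-interacting protein gene PBXIP1 at 0.13. The call of CRTC2 was lost in 1 of 15 alternatives, without MEF2C hairpin replicate 1 (edgeR adjusted p = 0.118), that of CRTC3 in 2 (MEF2C hairpin replicate 2 or scramble replicate 3 left out), and that of PBXIP1 in 6, among them DESeq2 and leaving out scramble replicate 2 or MEF2C hairpin replicate 1 or 2.

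Genes reported downstream of HOXA9 and MEIS1 in leukemia models did not all move in 1 direction, although the only lower call was lost in some alternatives. Of 10 in the list 7 were tested, of which 3 were higher and 1 was lower, against 13.5% and 15.3% of all tested genes. Of the 10, 3 had a mean of at least 100 CPM, where 57.4% of genes were called, and 0 one of 20 to 100 CPM. The median of the 7 on the log2 scale was 0.10. SYTL1, a synaptotagmin-like protein gene, rose by 0.30 on the log2 scale with SE 0.0648 (edgeR adjusted p = 0.000336), with means of 13.2 ± 0.547 and 16.4 ± 0.809 CPM in the groups (SD over 3 libraries each). The hypoxia-inducible factor genes HIF1A and EPAS1 rose by log2 values of 0.10 and 0.40 (edgeR adjusted p = 0.00214 and 0.0057). EPAS1 was low, at 4.10 CPM in scramble libraries. The calls of SYTL1, HIF1A and EPAS1 held in all 15 alternatives. The D-type cyclin gene CCND3 is among the genes of at least 100 CPM, whose median log2 fold change was -0.05. It measured 696.9 and 667.0 CPM, a log2 fold change of -0.06 (edgeR adjusted p = 0.0158). That call was lost with no filter on low counts, and when scramble replicate 2 or either of MEF2C hairpin replicates 2 and 3 was left out, in a range of adjusted p from 2.18e-05 to 0.166. MYB stood at 436.9 ± 9.11 CPM in scramble and 432.8 ± 3.36 CPM in hairpin libraries (SD over 3 libraries each), with an edgeR adjusted p of 0.683. FLT3, chosen after its values were seen, stood at 1.91 and 1.99 CPM (scramble and hairpin means).

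**Figure D4:**
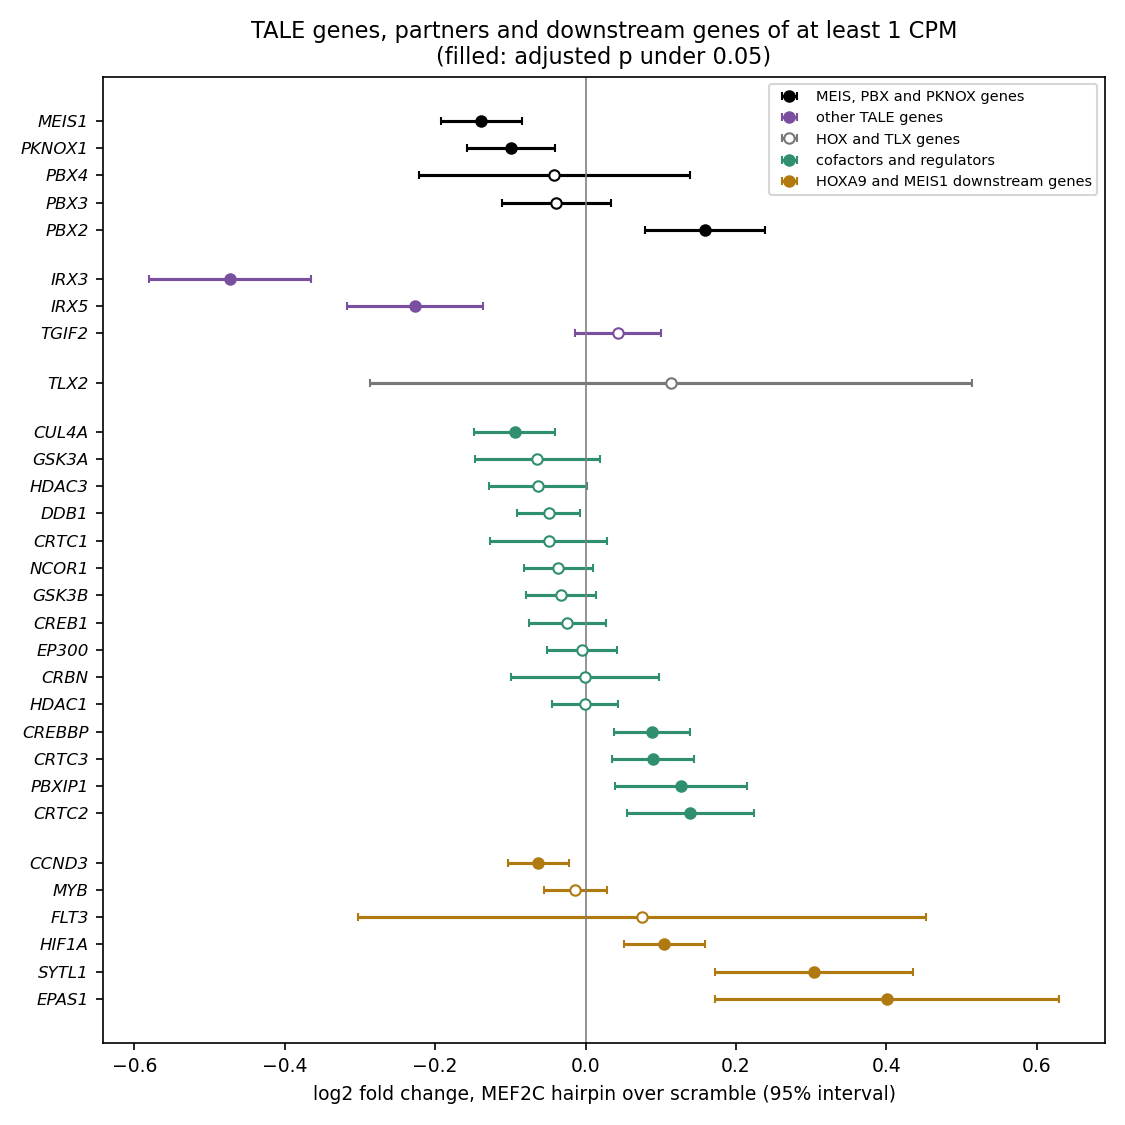
Log2 fold change with its 95% interval for the tested genes of at least 1 CPM in the member and partner lists, filled where the adjusted p was under 0.05. MEIS1 and PKNOX1 lie left of 0 and PBX2 right of it, IRX3 is the lowest value at -0.47, and the 15 cofactors lie within 0.15 of 0.

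The genes most like MEIS1 across the 6 libraries were SELENOI, ARHGEF6 and TBC1D4. Likeness was the root mean square difference of log2 CPM over the 6 libraries, after each gene was centred on its own mean, among 9444 protein-coding genes of at least 5 CPM. The difference was 0.00884 for SELENOI, an ethanolamine phosphotransferase gene, 0.00933 for ARHGEF6, a guanine nucleotide exchange factor gene, and 0.0116 for TBC1D4, a Rab GTPase-activating protein gene, against a median of 0.0850 over all genes ranked. The same measure gave 0.0589 for PBX3, 0.0610 for PKNOX1, 0.0848 for PBX4 and 0.157 for PBX2. PBX2 was thus the expressed member least like MEIS1. A gene with the same level in all 6 libraries would score 0.0740. In percent, the changes of the 3 genes were -8.77, -8.54 and -9.82. They were picked for likeness to MEIS1 over these same libraries, so changes near that of MEIS1 follow from the choice. All genes also share the libraries and depth scaling, so this is a description without a test.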

How the data were processed

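TRIzol was used for total RNA and a TruSeq kit for the libraries, per the labels' protocols. The submitters' processing notes name Trim Galore, STAR and HTSeq and the build hg38; versions, annotation release and strand setting are not given in the sources used here. Each library has 1 deposited file of raw read counts by gene, which the authors made. The 5 HTSeq summary lines, 19.2 to 31.4% of reads, stayed out. GENCODE 29 (GRCh38) gave positions, lengths and sequences and covered 90.0% of tested genes.

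Genes were kept by filterByExpr (minimum count 10), scaled by TMM and tested with edgeR 4.0.16 under R 4.3.3, a robust quasi-likelihood fit with group as the only term. Adjusted p-values are Benjamini-Hochberg over 17677 genes, threshold 0.05. The SE was taken from the fold change and the F statistic. Fits were tested on simulated data.

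Members and lists were chosen with earlier results of these data known, and 1 gene of the cofactor list is not reported here. Named genes are the members, up to 3 called genes per list with the smallest adjusted p, all genes of at least 5 CPM where a list has at most 5, and the 3 most like MEIS1. Alternatives were other scalings, filters and tests (DESeq2 1.42.0, limma-voom 3.58.1), GC content and length offsets, a replicate block and leaving out each library. Replicates differed by at least 3.31 chi-square units per gene, so each counted as its own library.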

Additional observations from a re-analysis of the deposited data

How the results depend on the processing

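Calls and directions of MEIS1, PBX2, PBX3 and PBX4 held in all 15 alternatives, with log2 fold changes of -0.16 to -0.11, 0.12 to 0.19, -0.05 to -0.02 and -0.09 to -0.01. PKNOX1 kept its direction (-0.13 to -0.07), with its call lost in 2, so that leaving out 1 library gave 1 to 2 members lower. Leaving out 1 library gave 2 to 4 cofactors higher and 0 to 1 downstream genes lower; the downstream count was also 0 with no filter. With GC content and length offsets 4 cofactors were lower, with and without the block; the cause was not tested. With the longest transcript as length, scramble levels were 25.3 (MEIS1), 16.8 (PBX2), 19.4 (PBX3), 4.52 (PBX4) and 24.3 RPKM (PKNOX1), since that length is shorter than the union of exons. Over all genes, calls ran from 1871 to 2549 higher and 2242 to 2855 lower. Same-numbered libraries of the groups did not deviate together over all tested genes (correlations of -0.0135, -0.0137 and -0.00314). A small shared effect could be missed this way, and the labels do not say whether the numbers pair libraries. With the replicate block, 2308 genes were higher and 2584 lower against 2386 and 2711, and the 5 members kept their calls. Depth limits PBX4 most, and technical replicates limit every p-value.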

Other observations

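Noncoding genes beside the members were low. MEIS1-AS2 and MEIS1-AS3, antisense to MEIS1 and sharing bases with its exons, measured 1.07 ± 0.406 and 1.01 ± 0.0539 CPM in scramble and 1.16 ± 0.0945 and 1.04 ± 0.174 CPM in hairpin libraries (SD, n = 3 each; edgeR adjusted p = 0.852 and 0.884). Exons of other genes cover 4.19% of the exonic bases of MEIS1, and without a stated strand setting their reads cannot be told apart. PBX3-DT, a divergent transcript next to PBX3, was not tested: scramble replicates 1 to 3 held 0, 5 and 4 of its reads, and hairpin replicates 1 to 3 held 13, 22 and 6. The MEIS3 pseudogenes MEIS3P1 and MEIS3P2 received 0 reads in all 6 libraries.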
